A study of Bos taurus with 16 samples.

Results

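Interferon tau (IFNT), the trophoblast Kunitz domain proteins (TKDP) and the pregnancy-associated glycoproteins (PAG) are secretory families of the ruminant trophoblast. Their loci were taken by gene name, being every name that starts with IFNT, IFN-tau or TKDP, in any case, or that is PAG followed only by digits. This gave 27 of the 22358 loci, of which 5 were IFNT, 5 TKDP and 17 PAG. The RNA came from 16 pools of blastocysts of 8 Holstein cows, with 2 pools per cow. The 4 Control cows (numbered 1 to 4) ate a basal diet, and the 4 Methionine cows (5 to 8) ate the same diet with rumen-protected methionine, from calving until the embryos were flushed. All 8 cows had been superovulated and inseminated, and the methods describe embryos recovered from the uterus, although the labels give the tissue as IVF embryos. A pool held a single blastocyst or a few, and cell types were not separated. Most methionine-rich pools held more blastocysts than the control pools, and the RNA quality number was lower in several of them. The part of either in the results was not tested. A pool is named by its treatment, its cow and its number, so that C2.1 is the first pool of control cow 2. C3.2, whose reads were mostly in introns and between genes, did not enter the tests, in keeping with the study's methods. The tests used 7 control and 8 methionine-rich pools.

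IFNT is a type I interferon that the trophectoderm of ruminants secretes before the embryo attaches. It acts on the endometrium through the receptor subunits IFNAR1 and IFNAR2, restrains the pulses of prostaglandin that would end the corpus luteum, and is known as the signal by which the cow recognizes pregnancy. TKDP are small secreted proteins with a domain of the Kunitz protease inhibitor type, made by the same cells in the weeks before attachment. PAG belong to the aspartic proteinases, although several members are thought to be inactive as enzymes. PAG2 and its relatives are known from the whole trophectoderm, whereas PAG1 and its relatives are known from the binucleate cells that appear later and release them into maternal blood.

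Depth, as total counts, was 5624126 to 7826542 for the 15 pools tested and 1745048 for C3.2. A level is given in CPM, the counts of a locus per 1000000 counts of its pool. The smallest level that the depth can show, taken as 3 counts in a pool, was 0.383 to 0.533 CPM in the 15 pools and 1.72 CPM in C3.2. Trophectoderm markers were abundant as a sum in every pool, mostly through KRT18. Summed over CDX2, GATA3, KRT8, KRT18 and TFAP2C, they reached 3268 to 7844 CPM in control and 2263 to 5952 CPM in methionine-rich pools. KRT18 alone had 2567 to 6291 CPM and 1757 to 4926 CPM, respectively, whereas CDX2 was low and was counted in 12 of the 16 pools. Markers of the inner cell mass (NANOG, SOX2, POU5F1, LIFR) summed to 33.1 to 115 CPM and 34.0 to 82.0 CPM, respectively. Those of the hypoblast summed to 92.1 to 234 CPM and 105 to 336 CPM, with SOX17 at 0 in all 16 pools. Endometrial epithelium markers were near 0 in the tested pools, at up to 2.96 CPM and 4.71 CPM. They reached 8.02 CPM in C3.2, through PIGR, and PAEP was at 0 in all 16 pools. Oocyte and cumulus markers summed to 1.08 to 23.7 CPM and 0.273 to 17.8 CPM. C2.1 stood apart with 1809 CPM summed over 7 leukocyte markers, against at most 6.68 CPM in the other 14 tested pools and 165 CPM in C3.2. The largest part of the sum was LAPTM5 in C2.1, at 1239 CPM, and PTPRC in C3.2, at 159 CPM. Of the 7 markers LAPTM5, TYROBP and LCP1 were tested. All 3 were called higher in control by the exact test of edgeR, which called 1.05% of all loci tested. The quasi-likelihood test of edgeR gave them FDRs of 0.302 to 0.312, and none passed the filter without C2.1. The fold changes of IFNT2 and PAG2, the family sums and the medians of the gene lists are also given without C2.1.

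The 3 families together took 852 of the counts of the 16 pools, and 2 of their loci held most of them. IFNT2 held 589 counts, or 69.1% of the counts of the families, and PAG2 held 128. Of the 27 loci, 8 had no count in any pool, 8 had counts in a single pool, 9 in 2 to 4 pools, and IFNT2 and PAG2 in 14 and 10 pools. Over the whole series, 21.8% of the loci had no count in any pool, against 29.6% of the family loci. Of the loci with a count, 11.5% over the whole series were counted in a single pool, against 42.1% of the family loci. A locus was tested if its CPM summed to at least 15 over the 15 pools, a filter that 10519 loci passed. IFNT2 and PAG2 passed it and the other 25 family loci did not.

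**Figure D1:**
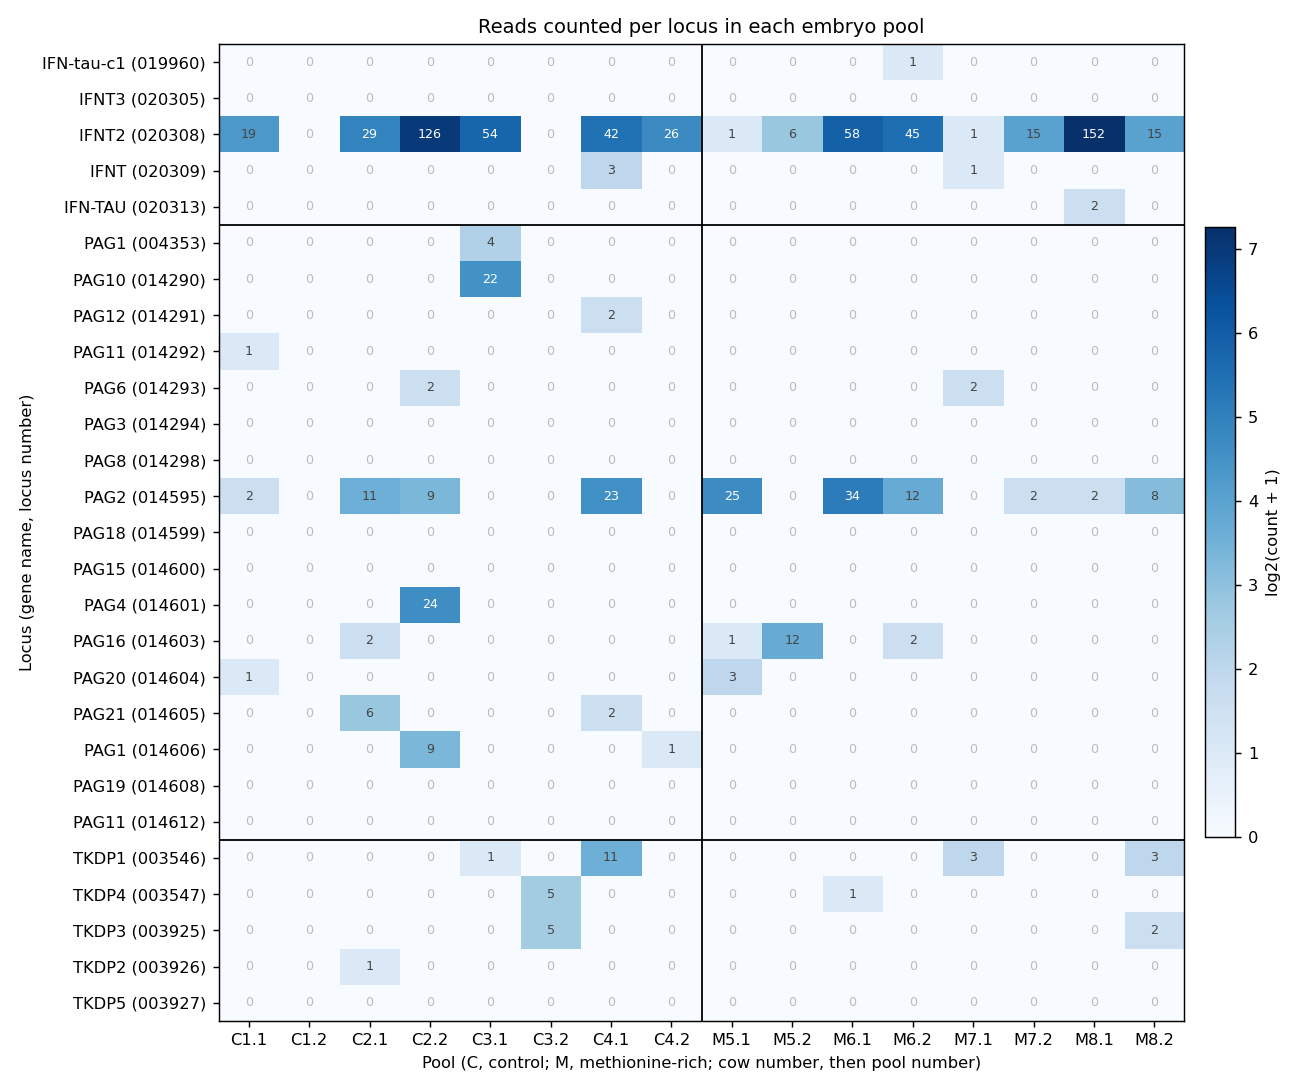
Reads counted for each of the 27 loci (rows, with the locus number in brackets) in each of the 16 pools (columns), printed in the cells and coloured by log2(count + 1). Lines separate the families and the treatments, and IFNT2 and PAG2 are the only rows with counts in more than 4 pools.

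Some names need care. The name PAG1 is carried by 2 loci. XLOC_014606 is listed among PAG21, PAG20 and PAG19, whereas XLOC_004353 is listed beside TPD52, ZNF704, PMP2, FABP9 and FABP4. In the RefSeq annotation of the assembly ARS-UCD2.0, the gene with the symbol PAG1 has these same neighbours on chromosome 14, and the PAG genes proper lie on chromosome 29, where PAG1 is a synonym of LOC281964. XLOC_004353 matched the rule by its name only and had 4 counts, all in C3.1. The name PAG11 is also carried by 2 loci. No locus among the 22358 carries the name PAG5, PAG7, PAG9, PAG14 or PAG17, which RefSeq lists. The IFNT genes are close copies of each other, and some PAG genes are closely related while others are not. No sequences were compared here. Reads that match several copies equally well may not have been counted or may have been split, so the assignment of counts to a copy is uncertain. The files hold no coordinates, and none were taken from the other assembly.

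IFNT2 (XLOC_020308) was the family's main transcript, with 98.8% of the IFNT counts. It was found in 14 of the 16 pools, in 6 of the 7 control and in all 8 methionine-rich pools tested. In control it ranged from 0 to 19.5 CPM with a median of 5.16, and in methionine-rich pools from 0.128 to 21.2 CPM with a median of 2.15. The treatments overlapped over nearly the whole range, and each had a single pool far above its others, C2.2 with 126 counts and M8.1 with 152. C1.2 and C3.2 held no IFNT2 count, which at their depth allows up to 0.553 and 2.11 CPM by the 95% exact binomial interval. These intervals cover counting error only.

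The pools of a cow often differed in IFNT2. Cow 8 had 21.2 CPM in M8.1 and 2.03 CPM in M8.2, a ratio of 10.4. Cow 2 had 5.16 CPM in C2.1 and 19.5 CPM in C2.2, and cow 4 had 6.92 CPM in C4.1 and 3.34 CPM in C4.2. Cow 1 had 2.51 CPM in C1.1 and none in C1.2, at least 5.57-fold less when C1.2 is set to its floor of 3 counts. Cow 7 had 0.128 CPM in M7.1 and 2.28 CPM in M7.2. Only cows 5 and 6 had intervals that overlapped, with 0.138 CPM in M5.1 and 0.792 CPM in M5.2, and 7.90 CPM in M6.1 and 7.57 CPM in M6.2. The intervals of the pools thus lay apart in 5 of the 7 cows with both pools tested. The median difference was 2.51 CPM between pools of a cow (7 pairs) and 5.59 CPM between pools of different cows of a treatment (42 pairs, which share pools).

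**Figure D2:**
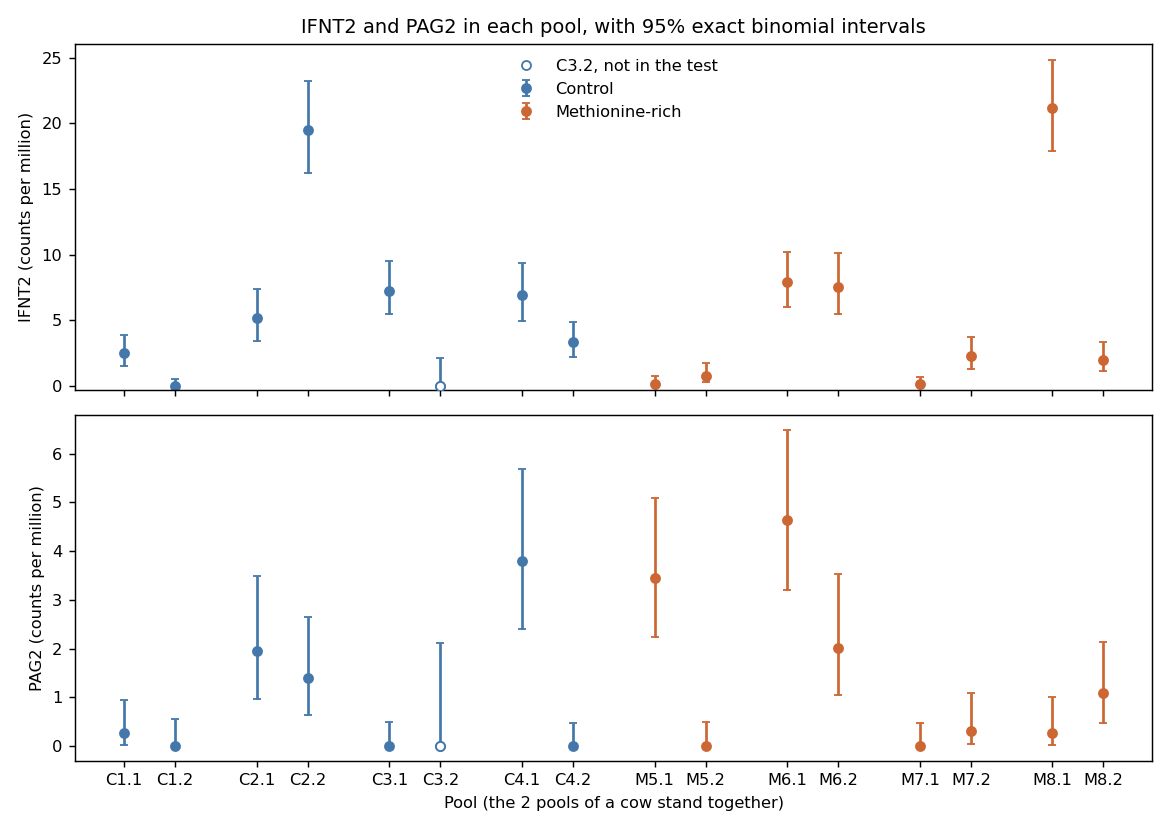
CPM of IFNT2 (top) and PAG2 (bottom) in each pool, with 95% exact binomial intervals that cover counting error. The pools of a cow stand together, the open circle is C3.2, and the highest IFNT2 values are 19.5 CPM in C2.2 and 21.2 CPM in M8.1.

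IFNT2 did not differ between treatments beyond the spread between cows. With the pools of a cow averaged, it was 6.50 ± 4.62 CPM in control and 5.25 ± 5.34 CPM in methionine-rich embryos (SD, n = 4 cows each, exact two-sided permutation test over 70 assignments of the cows, p = 0.686, where the smallest possible p is 0.0286). The exact test of edgeR on the 15 pools gave a log2 fold change, methionine-rich over control, of -0.16 with an FDR of 1 after Benjamini-Hochberg adjustment over the 10519 loci. The sign was not stable, since the value was 0.41 without cow 2, 0.22 without cow 5, 0.20 without cow 7 and 0.047 with all 16 pools. It was -0.97 without cow 8. DESeq2, with the 15 pools as separate samples, estimated -0.12 ± 1.01 (SE). The 95% interval ran from -2.10 to 1.85, so large differences in either direction lie within it. As pools are mixed tissue, the share of trophectoderm cells and the IFNT2 RNA per cell cannot be told apart in the level of a pool.

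**Figure D3:**
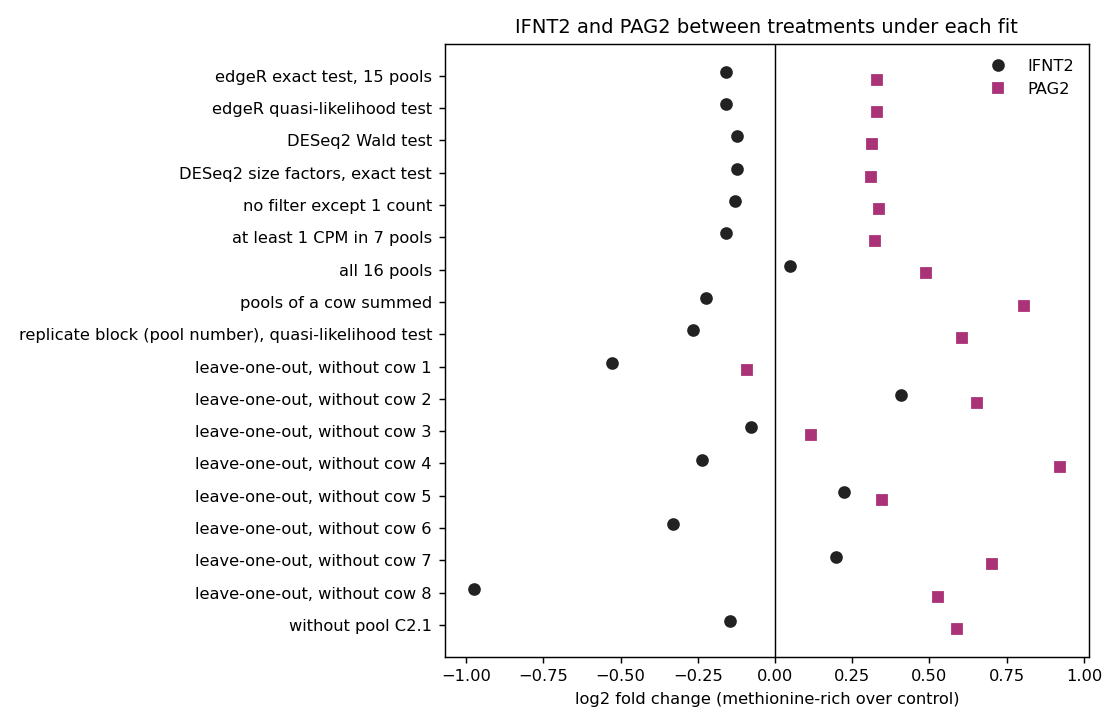
log2 fold change (methionine-rich over control) of IFNT2 (circles) and PAG2 (squares) in each fit, named on the left. IFNT2 lies between -0.97 and 0.41 and PAG2 between -0.091 and 0.92, and PAG2 has no value without cow 6 because it did not pass the filter there.

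The other 4 IFNT loci were at or near 0. The locus named IFNT (XLOC_020309) had 3 counts in C4.1 and 1 in M7.1. IFN-TAU (XLOC_020313) had 2 counts, both in M8.1, the pool with the most IFNT2, and IFN-tau-c1 (XLOC_019960) had 1 count, in M6.2. IFNT3 had none in any of the 16 pools, where a floor of 3 counts over their summed depth is 0.0282 CPM. None of these 4 loci passed 3 counts in a pool. Of the 10 other interferon loci in the files (IFNG, IFNW1, IFNK, IFNB1, IFNB3 and 5 of the alpha type), 9 were at 0 in all 16 pools. The exception was IFNK, with 30 counts in 8 pools and at most 1.22 CPM. Among the named interferon loci, most counts were those of IFNT2, and loci with LOC names that are listed between them were not examined.

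PAG2 (XLOC_014595), known from the whole trophectoderm, was the most counted PAG locus, with 57.1% of the PAG counts. It was found in 4 of the 7 control and 6 of the 8 methionine-rich pools. It ranged from 0 to 3.79 CPM in control, with a median of 0.264, and from 0 to 4.63 CPM in methionine-rich pools, with a median of 0.692. The treatments overlapped throughout. The highest pools were M6.1 with 34 counts, M5.1 with 25 and C4.1 with 23. Within cows, C4.2 and M5.2 held no PAG2 although the partner pool was among the highest, while M6.1 and M6.2 held 4.63 and 2.02 CPM with overlapping intervals. The intervals lay apart in 2 of the 7 cows with both pools tested.

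By cow, PAG2 was 0.925 ± 0.998 CPM in control and 1.47 ± 1.40 CPM in methionine-rich embryos (SD, n = 4 cows each, exact two-sided permutation test, p = 0.514). The log2 fold change was 0.33 by the exact test of edgeR, with an FDR of 1, and -0.091 without cow 1. DESeq2, with pools as separate samples, gave 0.31 ± 1.48 (SE), with a 95% interval from -2.60 to 3.22. Of the 2 family loci tested, 0 passed an FDR of 0.10 by the exact test, where 1.05% of all loci tested did, and 0 had an unadjusted p under 0.05. The quasi-likelihood test of edgeR and DESeq2 also called 0 of them, and called 0 and 69 (0.656%) of the 10519 loci. With all 16 pools in the exact test, 0 of the 2 were called, against 3.3% of the loci. With no filter other than 1 count, 19 family loci were tested and 0 were called, against 0.316% of the loci.

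IFNT2 and PAG2 were high together in some pools and apart in others. M6.1, with the highest PAG2 (4.63 CPM), had 7.90 CPM of IFNT2, and C4.1, with 3.79 CPM of PAG2, had 6.92 CPM of IFNT2. M8.1 had the highest IFNT2 but 2 PAG2 counts, and M5.1 had 25 PAG2 counts but 1 IFNT2 count. Over the 8 cows, Pearson's r between the cow means was 0.233 (exact permutation test, p = 0.581) and Spearman's rho was 0.119 (exact permutation test, p = 0.793). Without cows 2 and 5, the farthest from the median of IFNT2, r was 0.315. A treatment holds 4 cows, too few for a correlation within it. This single relation was computed.

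Of the other PAG loci of the PAG2 group, PAG10 had 22 counts in C3.1 (2.96 CPM) and none elsewhere. PAG12 had 2 counts in C4.1, and the PAG11 locus XLOC_014292 had 1 count in C1.1. PAG8 and the second PAG11 locus, XLOC_014612, were at 0 in all 16 pools. C3.1 thus held PAG10 and no PAG2, although both genes belong to this group.

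In the PAG1 group, known from binucleate cells, 6 of the 10 loci (without XLOC_004353) had a count and 4 did not. PAG4 had 24 counts in C2.2 (3.71 CPM) and none elsewhere. C2.2 was also the control pool with most IFNT2, and it held 9 counts of PAG1 (XLOC_014606), 9 of PAG2 and 2 of PAG6. PAG16 had 12 counts in M5.2 (1.58 CPM), 2 in C2.1, 2 in M6.2 and 1 in M5.1. PAG21 had 6 counts in C2.1, where leukocyte markers were high, and 2 in C4.1. PAG20 had 3 counts in M5.1 and 1 in C1.1, and PAG6 had 2 counts in each of C2.2 and M7.1. PAG3, PAG15, PAG18 and PAG19 were at 0 in all 16 pools.

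Of the 11 PAG loci with a count, 7 had counts in control pools only, 4 in both treatments and 0 in methionine-rich pools only. The 7 loci were PAG4, PAG10, PAG11, PAG12, PAG21 and both named PAG1, and 5 of the 11 loci were seen in a single pool. Without XLOC_004353, which matched by name only, 6 of 10 loci had counts in control pools only. Over all loci with a count in the 15 pools, 8.29% were counted in control pools only and 9.65% in methionine-rich pools only. A locus seen in a single pool falls in a single treatment by construction. Such loci were 42.1% of the family loci with a count, against 11.5% over the whole series. The shares over all loci are thus no measure for the scarce PAG loci, and loci with similarly few counts were not compared. The number of blastocysts per pool also differed between the treatments. None of the 7 loci passed the filter, and the exact test of edgeR with no filter gave them FDRs of 0.924 or more. Summed over the 17 loci, PAG reached 2.79 ± 2.04 CPM in control and 1.81 ± 1.57 CPM in methionine-rich embryos (SD, n = 4 cows each). The pools ranged from 0 to 6.81 CPM and from 0.256 to 4.63 CPM.

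TKDP transcripts were close to the detection limit. Of the 5 loci 4 had a count, and together they had 32 counts. TKDP1 (XLOC_003546) had 11 counts in C4.1 (1.81 CPM), 3 in each of M7.1 and M8.2, and 1 in C3.1. TKDP2 had 1 count in C2.1, and TKDP5 had none. TKDP3 had 2 counts in M8.2 and TKDP4 had 1 in M6.1, and each had 5 counts in C3.2, the pool left out of the tests, where 5 counts are 2.87 CPM. In the 15 pools the TKDP sum was 0.283 ± 0.420 CPM in control and 0.149 ± 0.148 CPM in methionine-rich embryos (SD, n = 4 cows each). The control value rests on C4.1. Without cow 4 the log2 ratio of the means turned from -0.92 to 1.003.

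The number of family loci with a count ranged from 0 in C1.2 to 6 in C4.1. C4.1 held IFNT2, IFNT, PAG2, PAG12, PAG21 and TKDP1. C1.2, the control pool with none, had a total of 6668507 counts, within the range of the other pools.

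Factors that are known to act on the IFNT promoter or in the trophectoderm were measured in most pools. Of the 12 genes listed, 10 were tested and 0 were called, with a median log2 fold change of -0.34 (-0.37 without C2.1) against -0.05 over all loci tested. CDX2, a trophectoderm factor known to activate IFNT, ranged from 0 to 27.3 CPM in control and from 0 to 5.10 CPM in methionine-rich pools. Its log2 fold change was -2.06 with an FDR of 0.691 by the exact test of edgeR. C3.1 held 203 of the 421 CDX2 counts, and the medians were 3.25 CPM in control and 1.57 CPM in methionine-rich pools. ETS2, a direct activator of IFNT, ranged from 9.70 to 97.8 CPM and from 8.21 to 144 CPM, with a log2 fold change of 0.65 and an FDR of 0.954. GATA2 and TFAP2C, transcription factors of the trophoblast, were found in all 16 pools. EOMES and TFAP2A, found in 2 and 6 of the 16 pools, were not tested.

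Of 7 genes of the type I interferon receptor and its signalling, 6 were tested and 0 called, with a median log2 fold change of 0.09, or 0.70 over the 5 tested without C2.1. IFNAR1, a receptor subunit, ranged from 0 to 3.37 CPM in control and from 0 to 13.98 CPM in methionine-rich pools. Its partner IFNAR2 had 75 of its 134 counts in C2.1. JAK1, the kinase bound to the receptor, was found in all 16 pools.

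Genes that interferon induces were mostly low. Of 15 loci found, 4 were tested and 1 was called, where 1.05% of all loci tested were. It was IFI6, higher in control with an FDR of 0.00184 by the exact test of edgeR and 0.312 by its quasi-likelihood test. C2.1 held 99.6% of the IFI6 counts, and the gene did not pass the filter without this pool, so that 0 of the 2 loci then tested were called. The median log2 fold change of the 4 loci was -4.02, or -3.10 when IFI6 and MX2, both at 0 in every methionine-rich pool, are set to a floor of 3 counts over these pools. It was -0.05 without C2.1. The sum over the 15 loci was 323 CPM in C2.1, at most 21.7 CPM in the other control pools and at most 21.6 CPM in methionine-rich pools. MX2, an antiviral GTPase, had 104 counts, 52 in C1.2, where no IFNT2 was counted, and 51 in C2.1. Its FDR was 0.158 by the exact test of edgeR, and it did not pass the filter without C2.1. C2.1 held the highest count for 7 of the loci, among them ISG15 (62 counts) and MX1 (21 counts), and its leukocyte markers reached the 1809 CPM given above. Its IFNT2 level, 5.16 CPM, was the median of the control pools. The 2 BST2 loci peaked in different pools. XLOC_018703 was highest in M8.1, the pool with most IFNT2, with 142 counts. XLOC_018704 had 60 of its 62 counts in C2.1 and none in methionine-rich pools. IFIT1, IFIT3 and USP18 were at 0 in all 16 pools.

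**Figure D4:**
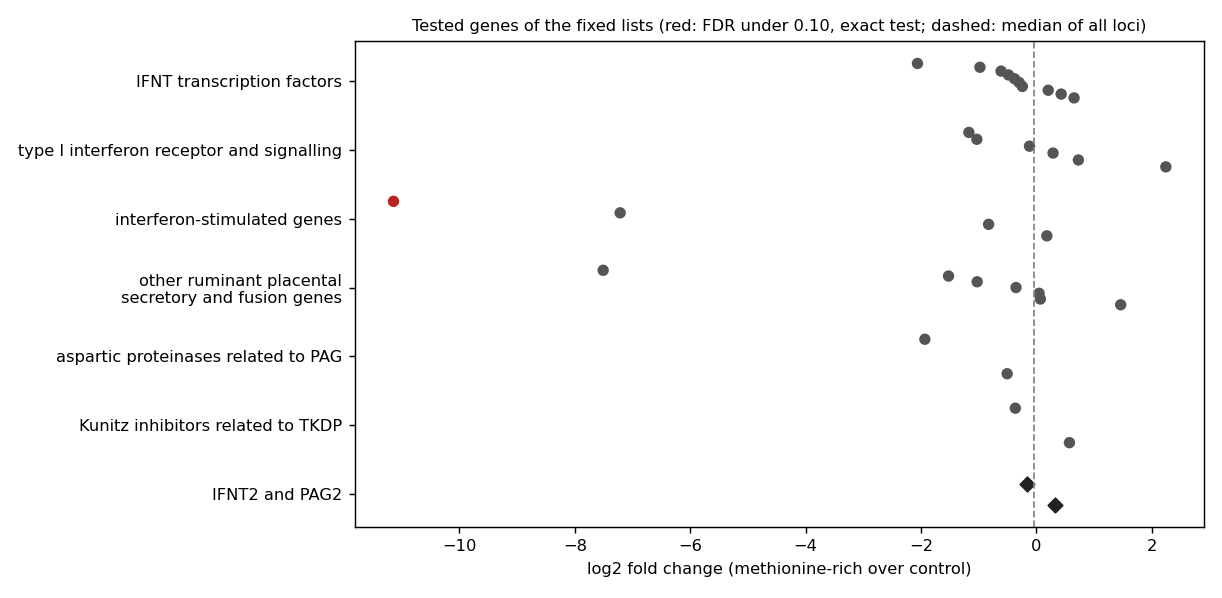
log2 fold change (methionine-rich over control, exact test of edgeR, 15 pools) of each tested gene of the lists, with IFNT2 and PAG2 as diamonds and the median of all loci as a dashed line; the height of a point within its list only orders the points, and cell type markers are not drawn. Of the genes drawn, IFI6, in red, is the single one with an FDR under 0.10, and its counts lie almost all in C2.1.

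Other genes of the placenta and of secretory trophoblast were either abundant in all pools or counted in few. Of 15 loci found, 7 were tested and 0 were called, with a median log2 fold change of -0.35, or -0.50 without C2.1. A PLAC8 locus (XLOC_018565) was abundant in every pool, with 271 to 714 CPM in control and 324 to 1203 CPM in methionine-rich pools (log2 fold change 0.07, FDR of 1 by the exact test of edgeR). SSLP1, a secreted protein of the Ly-6 type, was found in all 16 pools and was highest in M8.1 at 103 CPM. PTGS2, which makes prostaglandins, ranged from 9.10 to 40.4 CPM and from 2.92 to 26.3 CPM, with a log2 fold change of -1.03 and an FDR of 0.631. The prolactin family, whose placental members are made by the same binucleate cells as PAG1, was counted in few pools. PRP1 had 127 of its 136 counts in C4.1, CSH2, the placental lactogen, had all 13 in C1.2, and PRL had all 33 in C4.2. PRP6 had 49 counts in 3 pools, 26 of them in M6.2.

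The related proteinase and inhibitor genes of other tissues gave no call either. Of the aspartic proteinases, CTSD and NAPSA were tested, with log2 fold changes of -0.51 (FDR 0.912 by the exact test of edgeR) and -1.93 (FDR 0.616), and CTSD, the lysosomal cathepsin D, was found in all 16 pools at 18.7 to 102 CPM in the tested pools. Of the Kunitz inhibitors, SPINT2 and TFPI were tested, with log2 fold changes of -0.36 (FDR 0.992) and 0.57 (FDR 0.974). The medians without C2.1 were -1.30 for the aspartic proteinases and -0.0042 for the Kunitz inhibitors, against -1.22 and 0.10 with it. PTI, SPINLW1, WFDC8 and AMBP were at 0 in all 16 pools.

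The loci whose levels followed the IFNT sum most closely over the 15 pools were PAN3 and ARHGAP17, each with a Spearman correlation of 0.761, ZNF304 and HOXB2 with 0.757, and POGZ with 0.743. They were the highest of 5576 loci with a mean of at least 10 CPM, over which the correlation ranged from -0.796 to 0.761. These values are a description over pools that share cows. PAN3, a subunit of a deadenylase, had a mean of 380 CPM, and HOXB2, a homeobox gene, had 43.3 CPM. None of the 5 was a trophoblast factor of the list above, and all had an FDR of 1 between treatments by the exact test of edgeR.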

How the data were processed

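RNA of the 16 pools was linearly amplified in several rounds before sequencing. Per the labels and the methods, the authors mapped reads to bosTau7 with Tophat 2.0.4, assembled transcripts with Cufflinks 2.0.2 and counted reads per locus with htseq-count. The deposited counts are whole numbers with no normalization, 1 file per pool with 22552 rows, and each of the 22358 loci was entered once. Total counts ranged from 1745048 to 7826542. Amplification and the treatment of reads shared by gene copies can change the counts of these families, and this was not tested.

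CPM is counts per 1000000 counts of the pool. The test, filter and FDR threshold were those the study names, in a later version of edgeR. The numbers of loci tested and called differ from those the study reported. Treatments were compared with the exact test of edgeR 4.0.16 (R 4.3.3, TMM, common and tagwise dispersions, summed CPM of at least 15, FDR under 0.10) on 15 pools. The pools of a cow enter it as separate samples, so exact permutation tests over cow means stand beside it. DESeq2 1.42.0 gave standard errors, also with the pools of a cow as separate samples. Every locus of the 3 families is named, with genes of the lists and the 5 loci most like the IFNT sum. Genes of the lists not named in the text were given as counts. The members and lists were chosen with earlier results of these data known. Alternatives covered the test, normalization, filter, pools entered, pools summed by cow, pool number as a block and each cow left out. Omission of C2.1 and of the locus XLOC_004353 was added after seeing the data.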

Additional observations from a re-analysis of the deposited data

Results flagged for a closer look

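Within a treatment, the highest pool was compared with the gap to the next pool, as a share of the range (Dixon's criterion), for the 11 sets of pools in which a family locus passed 3 counts, and 9 of them stood out. Chance gives about 1 in 20 for normal values that were not selected. These sets were chosen for a pool above 3 counts and hold mostly zeros, so that for several the result followed from the choice, and the 9 cannot be read against that share. IFNT2 stood out in C2.2 at 19.5 CPM, with the next control pool at 7.27 CPM, and in M8.1 at 21.2 CPM, with the next methionine-rich pool at 7.90 CPM. The other values were PAG4 in C2.2 at 3.71 CPM, PAG10 in C3.1 at 2.96 CPM, TKDP1 in C4.1 at 1.81 CPM, PAG16 in M5.2 at 1.58 CPM, PAG1 (XLOC_014606) in C2.2 at 1.39 CPM, PAG21 in C2.1 at 1.07 CPM and the PAG1 locus XLOC_004353 in C3.1 at 0.539 CPM. For PAG4, PAG10 and XLOC_004353 the other control pools were at 0.

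In pool C3.2, which enters no test, TKDP3 and TKDP4 each had 5 counts, or 2.87 CPM, whereas both were at 0 in the 7 control pools tested. C3.2 also had 165 CPM of leukocyte markers, of which PTPRC gave 159 CPM, and 0 counts of IFNT2. The markers LCP1, CD74, CORO1A and FCER1G were at 0 in C3.2. The part of the low exon share of this pool in these values was not tested.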

How the results depend on the processing

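The number of family loci called stayed at 0 under all 17 alternatives, with 19 loci tested without a filter and 1 or 2 in the others. The log2 fold change of IFNT2 changed sign with all 16 pools (0.047) and ranged from -0.97 to 0.41 over the fits that each left out 1 cow, and that of PAG2 ranged from -0.091 to 0.92. Without cow 6, PAG2 did not pass the filter and has no value. Without C2.1 the values were -0.15 and 0.59, and the log2 ratios of the IFNT, TKDP and PAG sums were -0.65, -0.80 and -0.83. A replicate block made of the pool number gave -0.27 and 0.60. The block called 0 loci in all, as the quasi-likelihood test without it did, and the number is not known to mark a shared batch. The log2 ratio of the TKDP sum was -2.72 with all 16 pools, where C3.2 adds TKDP3 and TKDP4, and ranged from -1.71 to 1.003 with each cow left out. A median over pools gave no TKDP ratio, both medians being 0. The ratio of the IFNT sum was -0.30 and ranged from -1.04 to 0.20, and that of the PAG sum was -0.62 and ranged from -1.16 to -0.16, with each cow left out. The median over pools gave -1.26 and -1.34. Without the locus XLOC_004353 the ratio of the PAG sum was -0.55. The number of loci called in the whole series was 110, and was 356 with all 16 pools (3.3% of those tested), 0 by the quasi-likelihood test, 69 by DESeq2, 55 without a filter, 6 with at least 1 CPM in 7 pools, 64 without C2.1 and 62 to 153 with each cow left out. Of the 25 loci that did not pass the filter, 9 exceeded 3 counts in some pool, and 17 were tested without a filter.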

Other observations

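Between the PAG loci the files list 11 loci with LOC or MGC names, whose identity was not established here, and some held more counts than most PAG loci. LOC617765 had 106 counts, all in M6.1, the pool with most PAG2. MGC157405 had 84 of its 90 counts in the same pool, and LOC504812 had 63 of its 69 in M8.2. None reached the filter, and 4 of the 11 were at 0 in all 16 pools. They were chosen after their values were seen.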
